A study of Mus musculus with 32 samples.

Results

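The guanylate-binding proteins (Gbps) were followed through 32 mouse RNA-seq libraries by 10 gene symbols, Gbp2 to Gbp11, each of which was present in both the count table of 29511 genes and the table of FPKM values (fragments per kilobase of transcript, scaled to the size of the library) of 29434 symbols. Gbp6 had 2 rows in the count table, so the 10 members took up 11 rows. The study asked what the host's Clic4, a chloride intracellular channel family gene, does for mammary tumors and for the lung before metastasis. All mice were virgin female FVB/N littermates aged 6 to 8 weeks, either wildtype (WT) or carrying a constitutive Clic4 knockout (KO) that removes the region of exon 2 in every host cell. Tumors were grown in the fourth mammary fat pad from 6DT1, a single cell line derived from a mammary tumor of an MMTV-Myc mouse, in which Myc is driven by a mammary-active viral promoter; these cells carry intact Clic4 whatever the host. The groups were tumors of KO hosts and of WT hosts 14 days after implantation (6 each), lungs of KO and WT tumor-bearing mice at 14 days (6 each), and lungs of KO and WT control mice without an orthograft (4 each).

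Gbps are large GTPases whose genes are switched on by interferons, above all by interferon gamma acting in part through Irf1. Their proteins assemble on the vacuoles of intracellular parasites and on the surface of bacteria, expose them to cell-autonomous killing and help to set off inflammasomes. In tumors they are best known as part of the interferon gamma response that accompanies T cell and NK cell activity, and in the lung they are known for their induction in infection.

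The libraries held 4446323 to 8318711 counts assigned to genes (median 5384930). Clic4 itself was lower in KO lungs, by 1.49 on the log2 scale at 14 days (SE 0.09, FDR = 2.06e-09, edgeR) and by 1.45 in control lungs (SE 0.11, FDR = 1.73e-07), with every KO lung at or below 74.6 FPKM and every WT lung at or above 154.6 FPKM. Transcript outside the removed exon still counts as Clic4, so the remaining signal in KO lungs does not measure intact mRNA. In tumors, which mix 6DT1 cells with host cells, the log2 difference of Clic4 between KO and WT hosts was -0.21 (SE 0.05, FDR = 0.0343), with 58.9 to 69.0 FPKM in KO hosts and 74.7 to 82.2 in WT hosts. The 4 lung epithelium markers summed to 30571 FPKM or more in each lung and to at most 2.68 FPKM in each tumor, with Scgb1a1 at 0 in KO-host tumors. The 3 epithelial markers (Epcam, Krt8, Krt18) summed to 281 to 457 FPKM across the tumors.

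The 10 genes lie in 2 clusters of the mouse genome (GRCm38, gene spans of GENCODE M21). On chromosome 3, within 144 kb of the plus strand, stand Gbp5 (chr3:142493978-142522344), Gbp7 (chr3:142530342-142550149), Gbp3 (chr3:142560026-142573209) and Gbp2 (chr3:142620602-142638008). Between Gbp3 and Gbp2 lies Gbp2b (chr3:142594847-142619179), the gene also known as Gbp1, which is given below for comparison and is not counted among the 10. On chromosome 5, within 332 kb of the minus strand, stand Gbp8 (chr5:105014150-105139540), Gbp9 (chr5:105077630-105139539), Gbp4 (chr5:105115767-105139586), Gbp10 (chr5:105215699-105239533), Gbp6 (chr5:105270702-105293698) and Gbp11 (chr5:105323042-105346472). Gbp11 is annotated as a polymorphic pseudogene and the other 9 as protein coding. The spans of Gbp8, Gbp9 and Gbp4 overlap on the same strand.

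Members of the chromosome 5 cluster are close copies, which limits how well short reads tell them apart. The first 120 coding bases of Gbp6, Gbp10 and Gbp4 (M21 transcripts) are shown because they make this visible, with capitals at the 2 bases of Gbp4 that differ from Gbp6.
Gbp6: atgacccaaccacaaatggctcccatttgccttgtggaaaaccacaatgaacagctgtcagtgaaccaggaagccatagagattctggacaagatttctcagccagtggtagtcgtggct
Gbp10: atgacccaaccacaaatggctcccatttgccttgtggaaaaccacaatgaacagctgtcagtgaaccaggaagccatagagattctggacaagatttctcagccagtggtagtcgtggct
Gbp4: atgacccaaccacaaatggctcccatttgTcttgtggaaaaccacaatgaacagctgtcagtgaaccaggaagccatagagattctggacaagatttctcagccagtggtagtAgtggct
Over their whole coding sequence of 1833 bases, Gbp6 and Gbp10 differ at 30 positions. The stretch from coding base 1556 to 1645 has 12 of these, the most in any 90 bases, and is shown with the differing bases in capitals because reads from it can separate the 2 genes.
Gbp6: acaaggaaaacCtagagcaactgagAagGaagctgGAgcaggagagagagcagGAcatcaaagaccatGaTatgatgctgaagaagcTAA
Gbp10: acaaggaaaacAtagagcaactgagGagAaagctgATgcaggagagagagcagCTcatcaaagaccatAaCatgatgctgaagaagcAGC
The second count row deposited as Gbp6 carries the identifier ENSMUSG00000079362, which M21 names Gm43302 and places at chr5:105214907-105293695, across Gbp10 and Gbp6, with 2 coding bases different from Gbp6. Of all 75-base words in the transcripts, 67.3% of those of Gbp6 and 77.8% of those of Gbp10 also occurred in another Gbp transcript, compared with 10.3% for Gbp11, 8.04% for Gbp8, 3.08% for Gbp4, 3.61% for Gbp9 and 2.06% or less for each of the 4 chromosome 3 members. The values of Gbp6 and Gbp10 are therefore uncertain as to which of these copies they come from. The FPKM table gives 1 Gbp6 value per library. How it relates to the 2 count rows is not given in the sources used here. Several of these values, such as 2.775 in KO lung 3 at 14 days and 15.175 in KO-host tumor 6, carry a further decimal. Values of the other members lack it. A mean of 2 rows would have this form, but this was not tested. Gbp6 FPKM levels, and sums that include them, may therefore describe another quantity than the tests of its first count row.

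The RefSeq start sites of 4 members, all on chromosome 3, had a promoter window (250 bases before to 50 after the start, GRCm38.p6). The windows were searched on both strands for the interferon-stimulated response element core GAAANNGAAA (bound by Irf factors) and the gamma-activated site TTCNNNGAA, through which interferon gamma acts. Stretches before the RefSeq start are shown because elements of these kinds are known to take part in switching on interferon-induced genes. They are given in the direction of transcription and with matches in capitals.
Gbp5, chr3:142496684-142496899, plus strand: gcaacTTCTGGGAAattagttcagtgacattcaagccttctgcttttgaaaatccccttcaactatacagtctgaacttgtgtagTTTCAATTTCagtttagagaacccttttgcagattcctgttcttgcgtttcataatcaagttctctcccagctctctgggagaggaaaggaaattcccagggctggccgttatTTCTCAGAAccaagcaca
Gbp7, chr3:142530086-142530335, plus strand: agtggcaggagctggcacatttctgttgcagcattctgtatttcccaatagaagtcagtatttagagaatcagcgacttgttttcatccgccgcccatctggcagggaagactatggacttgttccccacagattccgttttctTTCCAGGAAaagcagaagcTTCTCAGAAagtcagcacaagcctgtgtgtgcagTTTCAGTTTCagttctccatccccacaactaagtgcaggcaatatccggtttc
Gbp3, chr3:142559794-142560025, plus strand: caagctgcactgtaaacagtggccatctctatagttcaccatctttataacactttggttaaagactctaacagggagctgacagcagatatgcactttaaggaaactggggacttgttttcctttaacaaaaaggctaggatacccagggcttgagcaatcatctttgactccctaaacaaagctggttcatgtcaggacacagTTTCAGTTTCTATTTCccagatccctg
Gbp2, chr3:142620594-142620623, plus strand: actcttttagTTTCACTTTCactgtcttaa
Each of the 4 genes held the response element core on its reverse strand, at 165 bases before the RefSeq start in Gbp5, 53 in Gbp7, 59 in Gbp2, and at 45 and 39 in Gbp3, where 2 matches overlap by 4 bases. The second of 2 windows listed for Gbp3 held neither motif. Gbp5 had 2 gamma-activated sites, at 245 and 52 bases before the start, Gbp7 had 2, at 106 and 87, and Gbp2 and Gbp3 had none in these windows. For comparison, 3.44% of all 32851 RefSeq promoter windows held the response element core, 8.3% the gamma-activated site and 0.454% both. By the M21 annotation, the first exon of Gbp2 begins at base 142620602, so its marked element lies in that exon, and the Gbp5 stretch lies inside the gene's M21 span. A match describes these letters only.

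In 6DT1 tumors, all 10 members were higher in KO hosts than in WT hosts and passed the limits (FDR under 0.05 and at least 2-fold, edgeR quasi-likelihood test), where 1.01% of the 13830 genes tested passed in that direction. All 10 members had passed the filter on low counts. Their median log2 difference was 2.14, from 1.12 to 2.90, beside a median of -0.01 over all genes tested. The plot of FPKM by tumor shows the 6 KO-host and 6 WT-host tumors for each member.

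**Figure D1:**
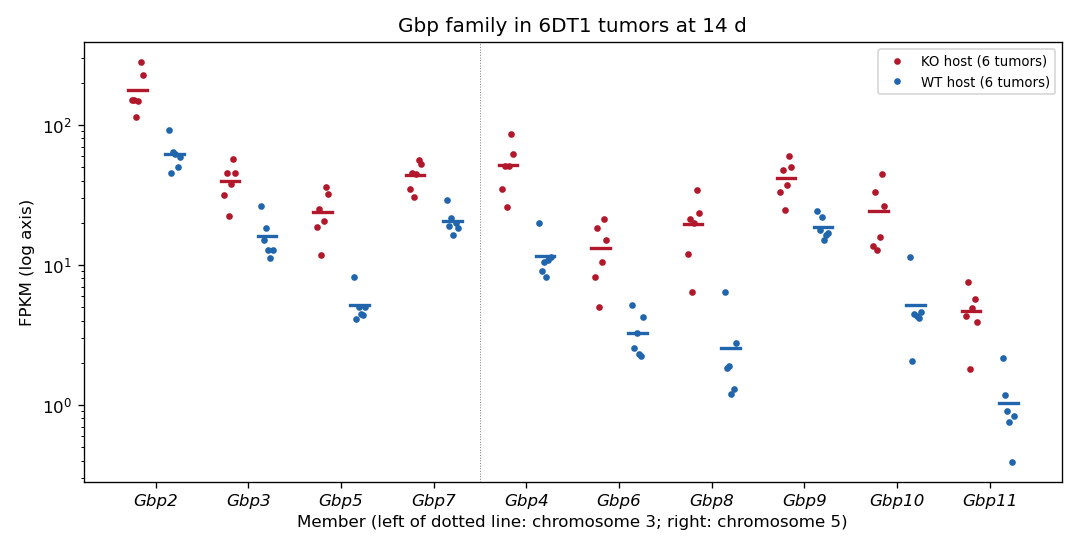
FPKM (log axis) of the 10 Gbp members in each of 6 KO-host and 6 WT-host tumors (points), with the group mean as a bar. The mean is higher in KO hosts for each member, and the groups do not overlap for 6 of the 10 members.

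Among the chromosome 3 members, Gbp2, which is anchored to membranes by a prenyl group and coats parasite vacuoles, was the most abundant Gbp in each tumor. Its level was 113.9 to 279.6 FPKM in KO hosts (median 150.3) and 45.4 to 92.3 in WT hosts (median 60.8), a 2.95-fold difference (log2 1.56, SE 0.21, FDR = 0.000541). All 6 KO-host tumors lay above all 6 WT-host tumors. Gbp5, also prenylated and known for promoting inflammasome assembly, had the smallest FDR of the family. It measured 11.8 to 36.0 FPKM in KO hosts (median 22.8) and 4.08 to 8.19 in WT hosts (median 4.72), a 4.69-fold difference (log2 2.23, SE 0.24, FDR = 0.000145), again without overlap. Gbp7, which acts in host defence against intracellular microbes, showed the smallest difference, 2.18-fold (log2 1.12, SE 0.15, FDR = 0.000536), with 30.6 to 55.8 FPKM in KO hosts and 16.3 to 28.9 in WT hosts. Gbp3 was higher in KO hosts (log2 1.43, SE 0.21, FDR = 0.00123), with 22.5 to 56.8 FPKM in KO hosts (median 41.6) and 11.2 to 26.1 in WT hosts (median 13.9). For Gbp3 the lowest KO-host tumor, replicate 3, fell below the highest WT-host tumor, replicate 1.

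On chromosome 5, Gbp8 showed the largest difference of the family, 7.46-fold (log2 2.90, SE 0.39, FDR = 0.000544), and ranked 5 by size of log2 difference among the genes tested. It measured 6.41, 11.9, 19.9, 21.3, 23.4 and 34.4 FPKM in the KO-host tumors and 1.20, 1.29, 1.83, 1.89, 2.77 and 6.42 in the WT-host tumors. KO-host tumor 3 and WT-host tumor 1 were almost level for this gene, and the other 5 KO-host tumors lay above every WT-host tumor. Gbp4 was higher in KO hosts (log2 2.14, SE 0.27, FDR = 0.000398), at 26.0 to 86.4 FPKM in KO hosts (median 51.2) and 8.18 to 19.8 in WT hosts (median 10.7), without overlap. Gbp9, the most abundant chromosome 5 member in WT-host tumors, was 2.36-fold higher (log2 1.24, SE 0.19, FDR = 0.00177), and its ranges came close to each other, with 24.5 FPKM as the lowest value in KO hosts and 24.3 as the highest in WT hosts.

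Gbp10, whose first coding bases match those of Gbp6, was 5.07-fold higher in KO hosts (log2 2.34, SE 0.37, FDR = 0.00200), with 12.8 to 44.5 FPKM against 2.07 to 11.3. Gbp6 was 4.43-fold higher (log2 2.15, SE 0.34, FDR = 0.00210) by its first row, on 45 to 269 counts in KO hosts and 20 to 39 in WT hosts, and the second row gave 4.05-fold (log2 2.02, SE 0.33, FDR = 0.00254). Gbp11, the annotated pseudogene, was 4.46-fold higher (log2 2.16, SE 0.36, FDR = 0.00280) on 21 to 93 counts against 7 to 31. The FPKM ranges of Gbp6, which may not stand for its first row alone, and of Gbp11 overlapped between genotypes. Over the family, 6 of 10 members had no overlap between the KO-host and WT-host tumors (Gbp2, Gbp4, Gbp5, Gbp7, Gbp9 and Gbp10), where 0.745% of 21744 genes with a mean of at least 0.1 FPKM had all KO-host tumors above all WT-host tumors. Gbp2b, the neighbour outside the list, was 5.72-fold higher (log2 2.52, SE 0.33, FDR = 0.000509), at 25.1 to 55.7 FPKM in KO hosts and 3.46 to 14.1 in WT hosts.

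The 10 members summed to 255.5 to 680 FPKM in KO-host tumors (median 418) and to 118 to 225 FPKM in WT-host tumors (median 132). KO-host tumor 3 had the lowest sum of its group and WT-host tumor 1 the highest of its own. With any single tumor left out the count of members called stayed at 10. With 10 counts or more required in every tumor, Gbp11 could not be tested and the other 9 members were called.

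The genes around the Gbps in interferon signalling were read from lists by role. Of 5 ligands listed, only 2, interferon gamma and Tnf, had FPKM values. Only Tnf had enough reads to be tested, at a log2 difference of 1.03 (SE 0.33, FDR = 0.129). Interferon gamma (Ifng), the main inducer of Gbp genes, was below the filter, with 2, 2, 4, 5, 8 and 17 counts in the KO-host tumors and 0, 0, 0, 1, 2 and 3 in the WT-host tumors. Of the 4 receptor chains, 0 passed the limits in edgeR (log2 0.05 to 0.29), with 2 at an unadjusted p under 0.05. Among 3 kinases, 0 passed both limits and 2 had an unadjusted p under 0.05, of which Jak2, which signals from the interferon gamma receptor, had a log2 difference of 0.50 (SE 0.08, FDR = 0.00163), short of 2-fold. Of 5 transcription factors given here, Irf1 passed (log2 1.16, SE 0.10, FDR = 4.33e-05). Stat2 (log2 0.99, FDR = 0.0135) and Irf8 (log2 0.72, FDR = 0.00452) were under the FDR limit without reaching 2-fold, and Irf2 and Irf9 passed neither. Socs1, a feedback inhibitor of Janus kinases, was the inhibitor that passed among 4 (2.82-fold, FDR = 0.00188).

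The immunity-related GTPases, which act on the same vacuoles as the Gbps, were higher in KO hosts for 8 of 8 listed genes, with a median log2 difference of 2.20. Tgtp1 (log2 3.11, SE 0.38) and Tgtp2 (log2 2.59, SE 0.23) are near-identical copies and share reads, so their values are uncertain one against the other. Iigp1 rose from 11.3 to 40.5 FPKM in WT hosts to 56.1 to 156.5 in KO hosts (log2 2.42, SE 0.30, FDR = 0.000350). Irgm1, which holds the other immunity-related GTPases inactive on the cell's own membranes, had the smallest difference of the list (log2 1.18, SE 0.22, FDR = 0.00619). Of 8 genes of the Atg8 conjugation system, which Gbp proteins need to find vacuoles, 0 passed in edgeR (log2 -0.12 to 0.24), with 1 at an unadjusted p under 0.05. Of 5 genes for prenylation and CaaX processing, 0 passed (log2 -0.12 to 0.16) and 0 had an unadjusted p under 0.05. Of 8 inflammasome and pyroptosis genes, 0 passed both limits and 4 had an unadjusted p under 0.05, while Casp4 (log2 0.72, FDR = 0.0221) and Nlrp3 (log2 0.82, FDR = 0.0330) were under the FDR limit.

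**Figure D2:**
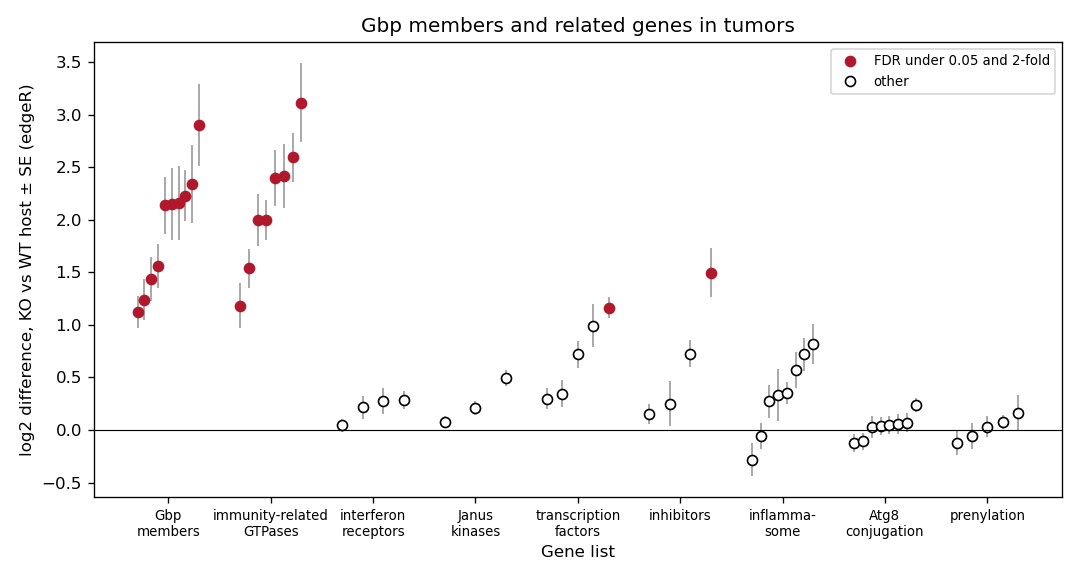
Log2 difference between KO-host and WT-host tumors with its standard error (edgeR) for the Gbp members and 8 lists of related genes, filled where the FDR is under 0.05 and the difference at least 2-fold. All 10 Gbp members and all 8 immunity-related GTPases are filled, and none of the receptor, kinase, inflammasome, conjugation or prenylation genes is.

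Of the immune cell markers listed, 3 passed the limits in tumors, all higher in KO hosts. The 6 T cell markers summed to 18.1 to 35.6 FPKM in KO hosts (median 28.4) and 8.26 to 23.9 in WT hosts (median 11.1), and 5 of the 5 tested were higher at an unadjusted p under 0.05 (8.95% of genes were higher at that p). Of these 2 passed, Cd3d (log2 1.46, SE 0.35, FDR = 0.0391) and Cd3g (log2 1.31, SE 0.31, FDR = 0.0389). The 3 monocyte markers summed to 87.7 to 168 FPKM against 33.0 to 101, with 3 of 3 higher at that p and Plac8 past the limits (log2 1.25, SE 0.22, FDR = 0.00446). The leukocyte marker Ptprc was at a log2 difference of 0.63 (SE 0.21, FDR = 0.146), also higher at that p. The 6 macrophage markers summed to 447 to 723 FPKM against 246 to 539, and the 5 NK cell markers to 16.7 to 29.4 against 10.97 to 32.2. Of these, 0 passed both limits in edgeR, with 3 macrophage markers and 2 NK cell markers higher at an unadjusted p under 0.05. The macrophage receptor Mertk was at a log2 difference of -0.43 (SE 0.19, FDR = 0.296), with an unadjusted p under 0.05 in the other direction. The 4 dendritic cell markers had a median log2 difference of 0.04, with 1 higher at an unadjusted p under 0.05, and 3 neutrophil markers one of 0.40, with 0 at that p. In edgeR 0 of either passed, and the 3 B cell markers had too few reads to be tested. The part of immune cell numbers in the Gbp difference was not tested. In bulk tissue, fewer cells of a type and less RNA per cell cannot be told apart, and neither can Gbp mRNA of host cells and of 6DT1 cells.

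In lungs the family did not pass the limits used there (FDR under 0.25 and at least 1.5-fold, edgeR) in any comparison. For lungs of tumor-bearing against control KO mice, 0 of 10 members were called, where 0.212% of 16029 genes were called higher. All 10 members had positive differences (median log2 0.59, against a median of 0.00 over all genes), and 1 of them, Gbp5, was higher at an unadjusted p under 0.05 (4.79% of genes), with a log2 difference of 0.86 (SE 0.39, FDR = 0.532). In WT mice, 0 of 10 members were called (0.331% of genes were called higher) and 0 had an unadjusted p under 0.05 (6.00% of genes were higher at that p), with positive differences again for all 10 (median log2 0.49). DESeq2 called 0 members in each of these comparisons. In each genotype, a single lung stood apart from the others.

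Lung replicate 2 of the KO mice at 14 days and lung replicate 5 of the WT mice at 14 days had the highest level of all 10 members in their groups. For Gbp3 the 6 KO lungs at 14 days measured 11.3, 12.04, 12.3, 12.9, 13.4 and 59.4 FPKM, and the 6 WT lungs 8.69, 12.4, 14.0, 18.4, 18.8 and 54.3. The control lungs measured 6.12, 10.9, 12.7 and 19.9 FPKM in KO mice and 9.68, 10.9, 13.2 and 22.1 in WT mice, so that only these 2 lungs lay outside the range of the other 18. Relative to the median of the other 5 lungs of its group, the KO lung was 1.91-fold (Gbp2) to 8.12-fold (Gbp6) higher and the WT lung 1.29-fold (Gbp4) to 4.77-fold (Gbp6) higher. Gbp4 set the 2 lungs apart from each other, at 67.1 FPKM in the KO lung and 32.6 in the WT lung. Summed over the family, they reached 444 and 383 FPKM, a level within the range of KO-host tumors, while the other 18 lungs lay between 80.3 and 202.

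**Figure D3:**
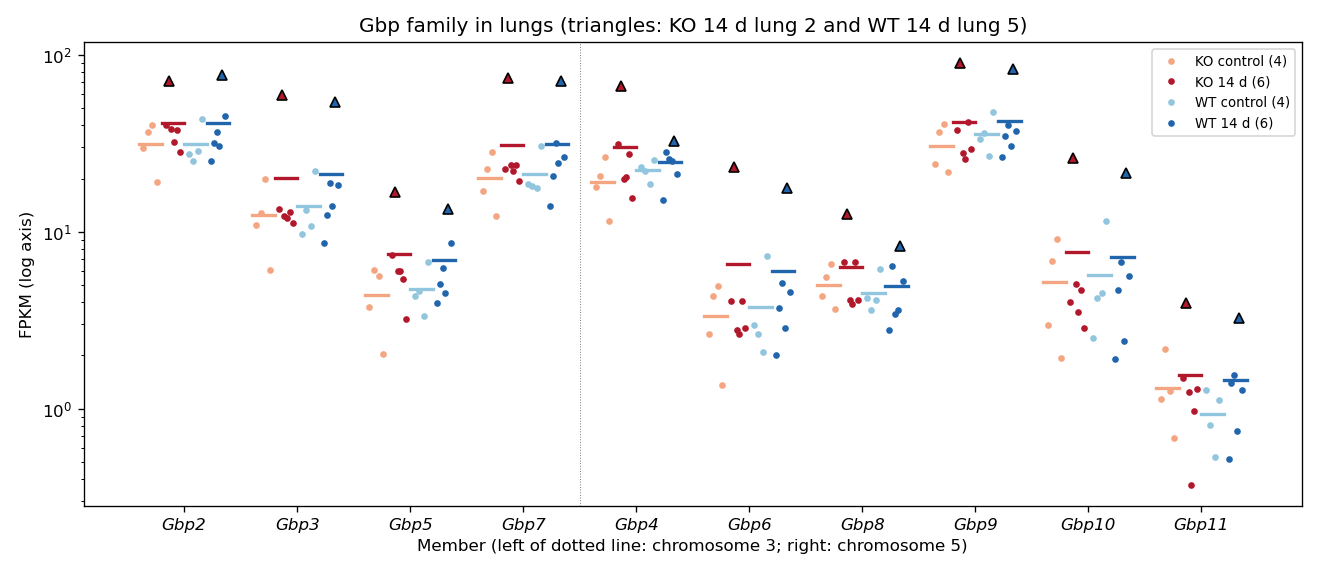
FPKM (log axis) of the 10 Gbp members in 20 lungs of 4 groups (points; bars are group means), with KO lung 2 and WT lung 5 at 14 days as triangles. The triangles are the highest points of their group for each member, and the ranges of the other lungs overlap between the 4 groups.

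The same 2 lungs were also above the other 5 lungs of their group in 8 of 8 immunity-related GTPases (3.41-fold to 7.43-fold the median of the others in the KO lung, 2.81-fold to 4.52-fold in the WT lung) and in Usp18, an interferon-induced inhibitor (62.8 and 77.2 FPKM). Of the 5 transcription factors, Stat2 was 4.35-fold the median of the others in the KO lung and 3.20-fold in the WT lung, Irf9 was 3.33-fold and 2.12-fold, and Irf1 was 1.38-fold and 1.15-fold, each above the other 5 lungs, while Irf2 and Irf8 were at 0.76-fold to 0.97-fold. Their T cell markers summed to 26.7 FPKM in the KO lung and to 21.6 FPKM in the WT lung, the lowest sum of the 10 WT lungs, and their 3 monocyte markers to 149 and 188 FPKM, the highest of all 20 lungs. These sums came from Plac8 (97.4 and 115 FPKM) and Ly6c2 (40.3 and 64.8 FPKM), while Ccr2 was at 0.87-fold the others' median in the KO lung and 0.64-fold in the WT lung. The 4 neutrophil markers with a median above 0 were at 0.08-fold to 0.20-fold of the others' median in the KO lung, and the 5 listed were at 0.98-fold to 4.89-fold in the WT lung. The 4.89-fold was Ly6g, at 1.32 FPKM against a median of 0.27. The 5 NK cell markers were at 0.37-fold to 0.72-fold in the KO lung and at 1.43-fold to 1.79-fold in the WT lung. In the WT lung, 0 of the 5 neutrophil and 0 of the 5 NK cell markers were above all other lungs of the group. The part of infiltrating cells in these values was not tested.

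Without both lungs, an alternative chosen after their values were seen, the differences between tumor-bearing and control lungs were lower for each member. In KO mice they ran from -0.28 (Gbp11) to 0.62 (Gbp6) and in WT mice from -0.36 (Gbp10) to 0.28 (Gbp5), and again 0 members were called in either genotype and 0 had an unadjusted p under 0.05 (edgeR), where 0.389% and 0.464% of genes were called higher. The 0.62 of Gbp6 (SE 0.50) came from its first count row. Its second row was at -0.19 (SE 0.33) in KO mice and at -0.05 (SE 0.31) in WT mice. Gbp10 went from 0.73 (SE 0.69) to -0.23 (SE 0.41) in KO mice and from 0.44 (SE 0.67) to -0.36 (SE 0.40) in WT mice. Gbp5 remained positive in both, at 0.43 (SE 0.26, FDR = 0.602) and 0.28 (SE 0.25, FDR = 0.692).

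**Figure D4:**
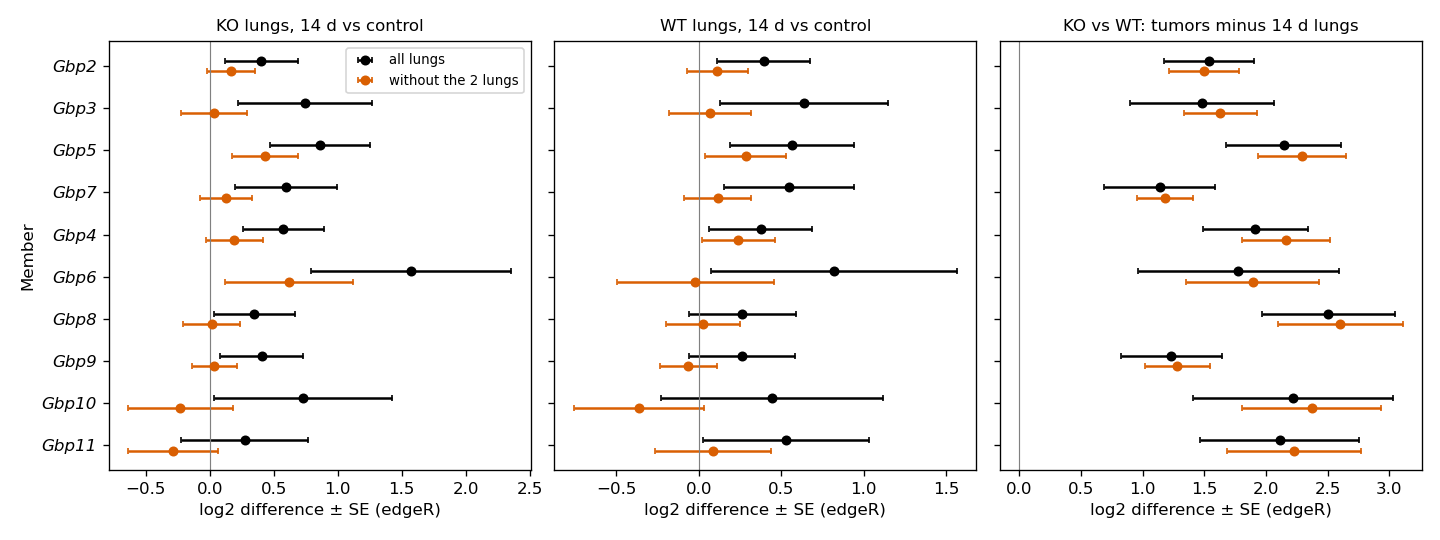
Log2 difference with its standard error (edgeR) for each Gbp member with all lungs and without KO lung 2 and WT lung 5 of the 14-day groups. The lung differences are lower without these lungs (left and middle), while the difference between the tumor and lung effects of host genotype (right) stays positive for all 10 members with smaller errors.

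Between genotypes, lung Gbp levels overlapped for all 10 members, where 0.420% of genes did not overlap in either direction at 14 days and 5.23% in controls. At 14 days, 0 of 10 members were called between KO and WT mice (0.212% of genes were called in either direction) and 0 had an unadjusted p under 0.05 (8.34% of genes), with log2 differences from -0.06 (Gbp3, SE 0.44) to 0.39 (Gbp8, SE 0.28). In control mice, 0 of 10 were called (0.231% of genes in either direction) and 0 had an unadjusted p under 0.05 (11.6% of genes), from -0.39 (Gbp6, SE 0.91) to 0.30 (Gbp8, SE 0.36). The interaction of genotype and tumor, that is whether the 14-day difference itself differed between genotypes, was called for 0 of 10 members (0.0499% of genes) and reached an unadjusted p under 0.05 for 0 (8.53% of genes). DESeq2 called 0 members in each of the 3. The error was smallest for Gbp2 at 14 days, at a log2 difference of 0.01 (SE 0.25), and largest there for Gbp6, at 0.36 (SE 0.61).

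**Figure D5:**
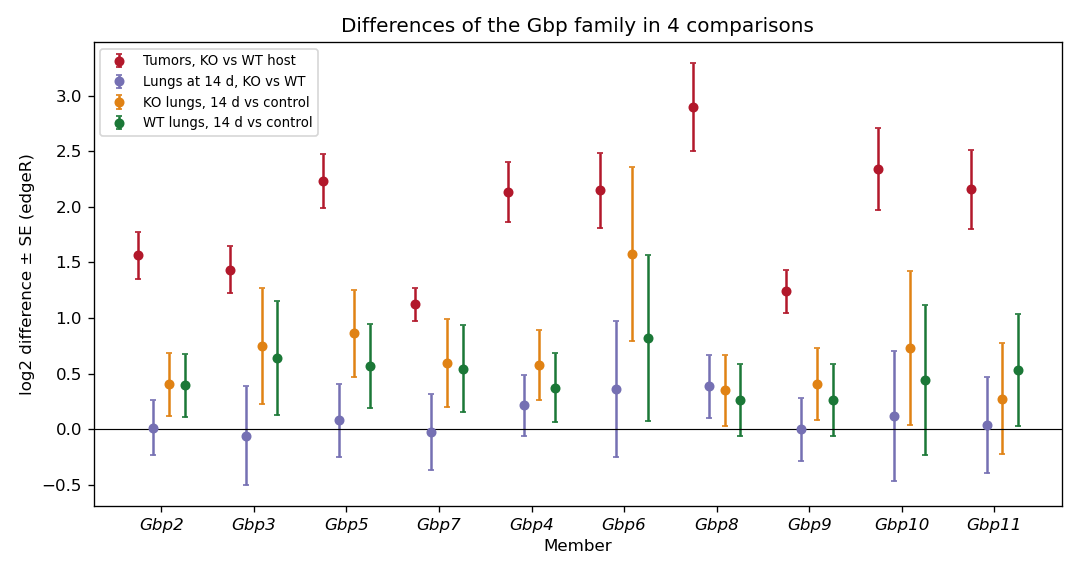
Log2 difference with its standard error (edgeR) of the 10 Gbp members in tumors (KO against WT host) and in 3 comparisons of lungs. The tumor differences run from 1.12 to 2.90, and the lung differences at 14 days between genotypes from -0.06 to 0.39.

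Whether the effect of host genotype differed between tumor and lung was tested directly, in a fit of the 12 tumors with the 12 lungs taken at 14 days. The effect was larger in tumors for all 10 members by its sign (log2 1.14 to 2.51, median 1.84), and the difference passed an FDR of 0.05 for 4 members, Gbp2 (log2 1.54, SE 0.36, FDR = 0.0450), Gbp4 (log2 1.91, SE 0.43, FDR = 0.0330), Gbp5 (log2 2.14, SE 0.47, FDR = 0.0281) and Gbp8 (log2 2.51, SE 0.54, FDR = 0.0270), where 0.558% of 16115 genes passed in that direction. This comparison shares its tumors with the one above and is not separate evidence for the tumor difference. The count of 4 became 1 with the replicate number as a block and 0 with limma at either pseudocount. It also depended on single libraries: it was 9 without KO lung 2, 2 without KO lung 1 or 5 or WT lung 2 or 6, 1 without KO lung 6 or WT lung 3, and 0 without any 1 of KO lungs 3 and 4, WT lung 5, KO-host tumors 5 and 6 and WT-host tumors 2, 3, 4 and 5. It was 8 without both lungs that stood apart (0.704% of genes). The differences of these 4 members kept their sign in each of the 24 fits that left out 1 library.

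Between tissues, the family was not uniformly higher or lower. In WT hosts, tumors had less Gbp4 (log2 -1.08, SE 0.31, FDR = 0.00295) and less Gbp9 (log2 -1.23, SE 0.29, FDR = 0.000534) than lungs at 14 days, 2 of 10 members, where 22.3% of genes were called lower in tumors, and 0 members were called higher by edgeR or DESeq2 (15.9% of genes), with Gbp2 alone higher at an unadjusted p under 0.05. At an FDR of 0.25 and 1.5-fold the count was 4 (Gbp2 higher, Gbp4, Gbp8 and Gbp9 lower), where 56.1% of genes were called in either direction. Without WT lung 5 the count of 2 lower members became 0, as it did without both lungs that stood apart (22.1% of genes). In the fit without both lungs, Gbp4 was at -0.95 (FDR = 0.00207, edgeR) and Gbp9 at -0.91 (FDR = 0.000129). Both were under the FDR limit and short of 2-fold. In KO hosts, 6 of 10 members were called higher in tumors, Gbp2, Gbp3, Gbp5, Gbp8, Gbp10 and Gbp11 (15.9% of genes), and 0 lower by edgeR or DESeq2 (21.2%). In edgeR all 10 differences were 0 or above, with Gbp2 the largest (log2 2.19, SE 0.26) when all lungs were used. Gbp9 had a difference of 0.00 (SE 0.28) there. Without both lungs that stood apart, 9 members were called higher in KO hosts (16.4% of genes), all except Gbp9, and Gbp10 (log2 2.71, SE 0.39) was above Gbp2 (log2 2.42, SE 0.21). Gbp2b measured 0.40 to 2.32 FPKM across the lungs and 3.46 FPKM or more in each tumor (log2 2.99, SE 0.39, in WT hosts and 5.06, SE 0.36, in KO hosts).

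By mean FPKM, a scale per transcript length, KO-host tumors were the highest of the 6 groups for 9 of 10 members. The exception was Gbp9, whose means were 42.2 ± 20.96 (SD, n = 6) in WT lungs at 14 days, 42.1 ± 24.1 (SD, n = 6) in KO lungs at 14 days and 42.0 ± 12.6 (SD, n = 6) in KO-host tumors. Without the 2 lungs that stood apart, Gbp9 averaged 33.8 ± 5.41 (SD, n = 5) in the WT lungs and 32.6 ± 6.81 (SD, n = 5) in the KO lungs, and KO-host tumors were the highest group for 10 of 10 members. With all lungs, WT-host tumors were the lowest group for 5 members (Gbp4, Gbp6, Gbp8, Gbp9 and Gbp10), and without those 2 lungs for 3 (Gbp4, Gbp8 and Gbp9). Of the 50 pairs of neighbouring groups in these orders, 49 had overlapping ranges (6.20% of such pairs over all genes did not overlap), and the 1 that did not was Gbp2 in KO-host tumors (178 ± 62.0 FPKM, SD, n = 6) above WT-host tumors (62.2 ± 16.5 FPKM, SD, n = 6). The makeup of the family differed with tissue. Gbp2 made up 33.8% to 48.9% of the summed Gbp FPKM of a tumor and 16.1% to 26.9% of that of a lung, while Gbp9 made up 8.77% to 15.1% in tumors and 19.8% to 27.7% in lungs. In lungs either Gbp2 or Gbp9 was the leading member, and in tumors Gbp2 always was.

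Members varied together from sample to sample. After group means were subtracted (log2(CPM + 1), TMM-scaled), Pearson's r between 2 members over the 12 tumors ran from 0.61 to 0.97 over 45 pairs (median 0.87), and was similar for the 24 pairs that join the chromosome 3 and chromosome 5 clusters (median 0.88). Over the 20 lungs it ran from 0.76 to 0.98 (median 0.90), and over the 18 lungs without those 2 from 0.40 to 0.94 (median 0.77). These values describe samples that share library preparation and tissue makeup, and Gbp6 and Gbp10 also share reads.

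Outside the family, the genes whose level followed the mean of the 10 members most closely across tumors were Igtp, an immunity-related GTPase (r = 0.98 over 12 tumors, 0.99 over 20 lungs, 0.96 over 18), Pla2g16, a phospholipase (0.98 in tumors, 0.69 in lungs, 0.24 over 18), Apol10b, an apolipoprotein L (0.95 in tumors and too low to be tested in lungs) and Ly6a, which encodes the surface antigen Sca-1 (0.95 in tumors, 0.89 in lungs, 0.69 over 18). These r are descriptions, chosen as the 4 highest of 13807 genes. Igtp measured 36.0 to 113 FPKM in KO-host and 14.0 to 27.0 in WT-host tumors. Ly6a was more abundant in lungs (259 to 782 FPKM) than in WT-host tumors (69.3 to 132), with KO-host tumors between 155 and 325. Pla2g16 stayed between 9.83 and 15.4 FPKM in all 20 lungs, including the 2 that stood apart. T cell markers had r from -0.004 (Cd3g) to 0.39 (Cd3e) over the 12 tumors. They ran from -0.40 (Trac) to 0.002 (Cd4) over 20 lungs and from 0.08 (Trac) to 0.45 (Cd3e) over 18. The monocyte markers Ly6c2 and Plac8 came to r = 0.70 and 0.68 in tumors and to 0.81 and 0.91 over the 20 lungs, while the third, Ccr2, came to 0.30 in tumors, 0.11 over 20 lungs and 0.65 over 18. The 5 NK cell markers ran from r = 0.10 (Gzma) to 0.59 (Prf1) in tumors. They ran from 0.14 (Klrd1) to 0.44 (Gzma) over 20 lungs and from 0.57 (Prf1) to 0.73 (Gzma) over 18. Among the 5 transcription factors, r in tumors was 0.70 for Irf8, 0.635 for Stat2, 0.60 for Irf1, 0.55 for Irf9 and 0.37 for Irf2. Over the 20 lungs it was 0.09 for Irf8, 0.93 for Stat2, 0.61 for Irf1, 0.93 for Irf9 and 0.01 for Irf2. Over the 18 lungs it was 0.60, 0.77, 0.17, 0.78 and -0.05 in the same order.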

How the data were processed

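RNA was sequenced from 12 tumors and 20 lungs after poly(A) selection in a stranded library kit, in paired-end runs. The authors aligned reads to mm10 (GRCm38) with STAR and quantified genes with RSEM; the annotation release is not given in the sources used here. The deposited count table gives expected counts from RSEM, in whole numbers and not normalized, and the deposited FPKM table holds RSEM's values scaled by the authors for transcript length and library size.

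Counts were tested with edgeR 4.0.16 (R 4.3.3; TMM, filterByExpr, quasi-likelihood F test) in one fit of tumors, one of lungs and one of 14-day tumors and lungs, with Benjamini-Hochberg FDR over all genes tested. Limits were an FDR of 0.05 and 2-fold in tumors and between tissues, 0.25 and 1.5-fold in lungs, 0.25 for the lung interaction and 0.05 for the difference between tissues. Standard errors were taken as the log2 difference over the square root of F. Groups followed the sample labels, and the samples of a group came from separate mice by the study's account. No 2 replicates agreed within counting noise (chi-square per degree of freedom 2.55 or more in 72 pairs). The fits were also run on simulated counts, with an outcome that is not given here and is not used as support.

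Named genes were the 10 members, Clic4, up to 5 genes a list with the smallest p in tumors, and the 5 genes most correlated with the members, of which 4 are given; 1 gene is not reported here; other genes named were chosen after their values were seen. Members and lists were chosen with earlier results of these data known. Alternatives were DESeq2 1.42.0, RLE factors, 2 other count filters, limma 3.58.1 on log2(FPKM + 1) and log2(FPKM + 0.1) with a mean of at least 0.1 FPKM, a replicate block, other limits, only the compared groups, and leaving out each sample. Leaving out 2 lungs together and summing both Gbp6 rows were added after seeing the data. Sequences and promoters came from RefSeq and GENCODE M21; 4 of 10 members had a promoter window.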

Additional observations from a re-analysis of the deposited data

Results flagged for a closer look

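A value was singled out where 1 sample lay far from the rest of its group by Dixon's ratio at the 95% level, which chance gives for about 1 group in 20. Among 60 groups of values (10 members in 6 groups), 21 were, and since members vary together these are not 21 separate events. KO lung 2 at 14 days accounted for 10 of them, with 71.5 FPKM for Gbp2, 59.4 for Gbp3, 67.1 for Gbp4, 16.9 for Gbp5, 23.2 for Gbp6, 73.7 for Gbp7, 12.5 for Gbp8, 89.6 for Gbp9, 26.2 for Gbp10 and 3.98 for Gbp11. The next highest lung of its group was at 40.4 FPKM for Gbp2 and 13.4 for Gbp3. WT lung 5 at 14 days stood out for 5 members, with 54.3 FPKM for Gbp3, 17.6 for Gbp6, 71.0 for Gbp7, 83.8 for Gbp9 and 21.6 for Gbp10. WT control lung 4 stood out for Gbp6 (7.29 FPKM) and Gbp7 (30.5 FPKM). WT-host tumor 1 stood out for Gbp4 (19.8 FPKM), Gbp5 (8.19 FPKM), Gbp8 (6.42 FPKM) and Gbp10 (11.3 FPKM), and all 10 members were called between tumors without it.

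The effect of host genotype differed between tumors and 14-day lungs, by the test of the difference itself in edgeR, for Gbp2 (log2 1.54), Gbp4 (log2 1.91), Gbp5 (log2 2.14) and Gbp8 (log2 2.51). These 4 calls became 1 under the replicate block, 0 with limma and 0 without any 1 of 9 libraries. Over the 24 fits that left out 1 library, 0 of these differences changed sign. Gbp2 ran from 1.26 to 1.77, Gbp4 from 1.68 to 2.29, Gbp5 from 1.86 to 2.57 and Gbp8 from 2.25 to 2.96.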

How the results depend on the processing

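In tumors, the 10 members kept their direction and their call in each alternative that tested them, except that Gbp11 could not be tested with 10 counts in every tumor; members called numbered 10 in each fit that left out 1 tumor. In lungs, 0 members were called in each alternative. Under the replicate block, members called were 10 in tumors, 0 in lungs, 7 higher in KO-host tumors than lungs and 2 lower in WT-host tumors, while those for the difference between tissues fell from 4 to 1. Same-numbered samples correlated above 0.1 in at most 2 pairs of any 2 groups (lowest -0.27, highest 0.22), and in no 2 groups did every sample correlate best with its own number, so the numbers were not taken to pair samples. Tumors and 14-day lungs of KO hosts came nearest, with r of 0.02 to 0.17 in 6 pairs and 4 samples closest to their own number; whether such a pair came from 1 mouse is not given in the sources used here. The members called for the difference between tissues were 0 with limma at either pseudocount, 8 without both lungs and 0 to 9 with 1 library left out; the cause was not tested. The 0s came without KO lung 3 or 4, WT lung 5, KO-host tumor 5 or 6, or WT-host tumor 2, 3, 4 or 5. In WT hosts, members called between tumor and lung were 4 at FDR 0.25 and 1.5-fold, where 56.1% of genes were called in either direction. They were 0 without both lungs and 0 to 3 with 1 library left out. Without both lungs, Gbp4 and Gbp9 stayed under the FDR limit but short of 2-fold.

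Directions turned for the following members, none of which had passed the limits. Between KO-host tumors and lungs, Gbp9 was -0.0589 with DESeq2, -0.0554 with RLE factors, -0.0145 without a filter, -0.0779 with 10 counts in every sample, and -0.12 to 0.33 with 1 library left out. In KO lungs at 14 days against control, Gbp10 was -0.23 and Gbp11 -0.28 without both lungs, and they ranged from -0.23 to 1.01 and -0.29 to 0.48 with 1 left out. In WT lungs, Gbp6 was -0.0200, Gbp9 -0.0626 and Gbp10 -0.36 without both lungs, with ranges of -0.0183 to 1.42, -0.0628 to 0.39 and -0.36 to 0.98, and Gbp10 was -0.12 under the replicate block. Between WT-host tumors and lungs, Gbp3 was 0.18, Gbp6 0.23 and Gbp10 0.34 without both lungs, with ranges of -0.58 to 0.15, -0.79 to 0.20 and -0.91 to 0.31. Over all genes, calls in tumors were 146 (DESeq2 173) and became 87 with limma at a pseudocount of 1 and 532 at FDR 0.25 and 1.5-fold. Calls in lungs were 42 in KO mice and 92 in WT mice at 14 days against control, 34 and 37 between genotypes at 14 days and in controls, and 8 for the interaction. They became 3, 0, 21, 8 and 0 with limma at a pseudocount of 1, 129, 152, 31, 30 and 1 under the replicate block, 0, 0, 9 and 2 at FDR 0.05, and 47, 88, 36, 9 and 178 with DESeq2. With only the compared groups in the fit, the comparisons between genotypes gave 18 and 246. With limma at a pseudocount of 0.1 the comparisons with control gave 6 and 12, the controls 7 and the interaction 0; without a filter WT mice gave 58 and the controls 7; without both lungs KO mice gave 81, the genotypes at 14 days 15 and the interaction 5. With 1 library left out, calls ranged from 2 to 60 in KO mice and 11 to 176 in WT mice against control, from 22 to 52 and 2 to 76 between genotypes, from 1 to 127 for the interaction and from 46 to 201 for the difference between tissues. Between tissues, calls fell from 6143 to 3002 in WT hosts and from 5982 to 2831 in KO hosts with 10 counts in every sample. The difference between tissues gave 114, 200 with DESeq2, 48 and 31 with limma, and 72 under the replicate block. Gbp6 and Gbp11 rest on 5 to 269 counts per library, which limits their precision.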
